A study of Mus musculus with 656 samples.

Results

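The comparison described here set 4 libraries of cells given SC-514 at 100 µM against 4 libraries given 0 µM, all sampled 30 min after the stimulus labelled IL-1β, and these 8 libraries were chosen by their labels out of 41 groups of 4 libraries in the series. The cells were 3T3 fibroblasts, an established line of mouse embryonic fibroblasts. They were kept for 1 h in medium with SC-514, a small molecule that inhibits the kinase IKKβ, and then received IL-1β at 1 ng/ml. Polyadenylated RNA was read by TagSeq, which counts the 3′ ends of transcripts, and each count column, here called a library, belongs to 4 of the 656 sample records. Beside the pair, the groups used were an unstimulated group without inhibitor, 25 and 50 µM under IL-1β at 30 min, 0 and 100 µM under IL-1β at 15 and 60 min, and 0 and 100 µM under TNF-α at 10 ng/ml for 30 min, with 4 libraries each. The labels name no vehicle for 0 µM and no group with inhibitor alone, so the inhibitor's action without a cytokine was not analysed here. They do not say whether the 4 libraries of a group were separate cultures, so p-values measure the spread between libraries, which may be technical. The prefix of the column names goes with the other stimulus in the sample titles than in the descriptions. The stimulus field and the description were followed, and IL-1β and TNF-α name those labels throughout.

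IL-1β binds a receptor on fibroblasts whose adaptors and kinases converge on the IκB kinase complex, made of IKKα, IKKβ and the scaffold NEMO. IKKβ marks IκBα for destruction, which lets NF-κB dimers enter the nucleus and switch on chemokines, cytokines and their own inhibitors, IκBα and A20, within minutes. The same receptor also signals through MAP kinases to serum response factor and AP-1, which drive immediate early genes such as Egr1 and Fos.

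Library totals were 1312323 to 1409151 counts at 0 µM and 1020553 to 1146585 at 100 µM, and 3 counts in 1 library equalled 2.11 to 2.31 and 2.56 to 2.9 CPM (counts scaled to a common library size). Genes with at least 1 count numbered 13545 to 14044 and 13222 to 13340, and mitochondrial transcripts made up 0.578 to 0.691% and 0.67 to 0.739%. Of 15 fibroblast markers, 13 were abundant enough to test, with Col1a1 at 1042 and 1078 CPM at 0 and 100 µM, Vim at 1236 and 1434, and Thy1 at 703 and 643. Lum had no count in any of the 8 libraries and Fap had 7 counts over them, and these markers were not tested. Of 31 markers of other cell types, 28 were in the table. Of these 6 had no count in any of the 8 libraries (Adgre1, Cd3e, Cdh5, Epcam, Adipoq and Gfap) and 7 were tested. Only 1, Lpl, was called higher, and 2 were called lower, Nes (17.5 and 2.3 CPM at 0 and 100 µM) and Cd14 (18.3 and 8.44 CPM). The summed level of the markers of other cell types was 165 to 207 CPM at 0 µM and 220.3 to 253 CPM at 100 µM. Lpl, a lipase made by fat cells and macrophages, gave 119.9 and 185 of it. Depth, detected genes and this sum moved with the group, and their part in the results was not tested.

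Library 4 of the 0 µM group stood apart. The chi-squared statistic over its degrees of freedom, taken over genes with at least 10 counts in a pair of libraries, was 1.97 to 3.09 in its 3 pairs, 1.19 to 1.68 in the other 3 pairs at 0 µM and 1.16 to 1.4 in the 6 pairs at 100 µM. No pair of the 12 was identical. Of 60 genes that TNF-α raised at 30 min, chosen in libraries that this pair does not include, library 4 had the lowest of the 4 values in 50 (83.3%), against 30.4% of all genes tested. Counts are therefore given with and without that library.

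Short stretches of promoter are shown for some genes whose transcripts IL-1β raised at 30 min without inhibitor, to place the sequences beside their values. These genes were picked for holding a match, from 23 looked up of which 18 had an entry, so their matches are no finding. Genes also raised by IL-1β that had an entry but no match of the kappaB or serum response letters given below included Ccl20, Zfp36, Fos and Ccn1. Junb, raised as well, held a match of the serum response letters and is not shown. The stretches were read from RefSeq (GRCm38.p6), in which 130 of the 165 named genes had an entry. All lie before the start site, 5′ to 3′ on the gene's strand. The first 5 hold the kappaB letters GGANNTTCC, searched on both strands. Their first base lay 70 bases before the start in Cxcl1 (chr5:90891130-90891229, plus strand), 43 in Il6 (chr5:30013014-30013113, plus strand), 29 in Nfkbia (chr12:55492648-55492747, minus strand), 24 in Tnfaip3 (chr10:19015411-19015510, minus strand) and 139 in Ier3 (chr17:35821529-35821628, plus strand). Nfkbia held another match at 178 bases, outside the stretch shown. Dusp1 (chr17:26508562-26508661, minus strand) shows the cyclic AMP element TGACGTCA at 143 bases, and Egr2 (chr10:67537753-67537852, plus strand), counted from 1 of its start sites, 2 overlapping matches of the serum response letters CCNTATNNG, searched on both strands, at 72 and 71 bases. Capitals mark the matches.
Cxcl1: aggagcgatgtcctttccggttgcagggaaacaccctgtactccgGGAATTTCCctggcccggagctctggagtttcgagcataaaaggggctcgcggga
Il6: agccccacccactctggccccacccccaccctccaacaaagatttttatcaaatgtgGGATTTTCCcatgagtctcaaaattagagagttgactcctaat
Nfkbia: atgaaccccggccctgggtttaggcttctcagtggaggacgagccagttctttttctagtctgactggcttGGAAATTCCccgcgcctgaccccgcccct
Tnfaip3: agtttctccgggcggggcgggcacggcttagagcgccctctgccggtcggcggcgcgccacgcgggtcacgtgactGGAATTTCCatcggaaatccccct
Ier3: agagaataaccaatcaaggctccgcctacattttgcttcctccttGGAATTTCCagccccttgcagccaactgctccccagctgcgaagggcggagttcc
Dusp1: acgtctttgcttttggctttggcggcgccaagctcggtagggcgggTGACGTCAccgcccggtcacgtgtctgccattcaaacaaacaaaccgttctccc
Egr2: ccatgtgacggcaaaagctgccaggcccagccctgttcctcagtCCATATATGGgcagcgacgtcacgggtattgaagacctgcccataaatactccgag

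Each gene's 250 bases before its start were searched on both strands. The kappaB letters were in 4.12% of all 27025 genes of the promoter table, in 4.55% of the tested genes with an entry, in 5.97% of those lower at 100 µM and in 4.61% of those higher, and in 9.86% (14 of 142) of those lower and 4.95% of those higher by over 1 log2. Of genes that TNF-α raised at 30 min, they were in 5 of 20 lower here (25%), 3 of 16 not called here (18.8%) and 1 of 6 higher here (16.7%). The AP-1 letters TGANTCA were in 5.25% of tested genes, 6.72% of those lower and 4.61% of those higher, and in 14.8% (21 of 142) of those lower and 2.97% of those higher by over 1 log2. The serum response letters were in 4.87% of tested genes, 5.67% of those higher and 4.48% of those lower, and the cyclic AMP element in 3.15%, 4.02% and 2.61%. The antioxidant letters TGACNNNGC, which can overlap a cyclic AMP element, were in 14.1% of tested genes and 14.3% of those lower, and the xenobiotic letters GCGTG in 51.9% of both. These shares describe letters in a window and were not tested.

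SC-514 at 100 µM changed the transcript level of 2425 of 10766 genes tested (22.5%) 30 min after IL-1β. Of these 1083 were higher (10.1% of those tested) and 1342 lower (12.5%), by edgeR's quasi-likelihood test with Benjamini-Hochberg adjusted p under 0.05. The change exceeded 1 log2 in 334 of them, and the median change over all genes tested was 0.0092. Without library 4 of the 0 µM group 1980 genes were called, 824 higher and 1156 lower, and 1833 of them were called in the same direction with it. Values are shares of each library's transcripts, and in bulk samples less RNA per cell and fewer cells of a type cannot be told apart. At 100 µM 2382 genes (22.1%) differed from the unstimulated group, while at 0 µM only 100 genes (0.929%) did, 75 higher and 25 lower. Scaling with RLE factors split the latter into 61 higher and 47 lower, and into 75 and 28 when 2 shallow libraries of the series were also left out. The latter count was 60 without library 3 and 63 without library 2 at 0 µM, and 66 without unstimulated library 1. These comparisons share libraries with the pair, so their values stand side by side only.

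**Figure D1:**
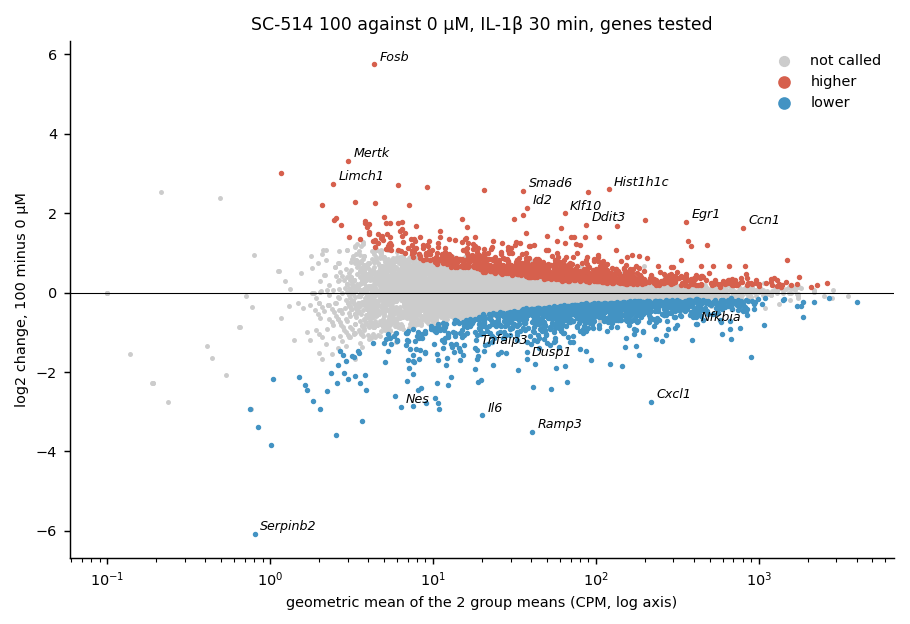
Log2 change at 100 against 0 µM SC-514 for all 10766 genes tested (vertical) against the geometric mean of both group means in CPM (horizontal, log axis, means under 0.1 drawn at 0.1). Red points were called higher, blue lower and grey not called. Fosb and Serpinb2, with 3 and 0 counts in 1 group, stand at fitted values that are no measure of their fold. Called genes lie on both sides of 0, with Ramp3 at -3.50 and Cxcl1 at -2.75 and Smad6 at 2.56.

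Cxcl1, Il6 and Ccl20, which IL-1β had raised, fell with the inhibitor. Cxcl1, a neutrophil-attracting chemokine (chromosome 5, plus strand), stood at 74, 85.2, 97.2 and 86.7 CPM in the 4 unstimulated libraries, 666, 629, 498 and 485 at 0 µM and 91.1, 87.1, 66.8 and 93.2 at 100 µM. All 4 libraries at 100 µM lay under the lowest at 0 µM and within or just under the unstimulated range. The change was -2.75 log2 (SE 0.18, adjusted p = 8.07e-27), beside 2.73 for IL-1β alone and -0.01 for the inhibited cells against the unstimulated ones (adjusted p = 0.979). Il6, the gene of interleukin-6, measured 90.2, 64.6, 53.9 and 26.8 CPM at 0 µM and 4.65, 9.39, 4.84 and 8.15 at 100 µM. Library 4 was the lowest of its group and still lay above every inhibited library. Il6 fell by 3.09 on the log2 scale (SE 0.41, adjusted p = 7.78e-10), and its change was -3.34 without library 4. Ccl20, a chemokine for dendritic and T cells, went from 34.9, 36.3, 22.4 and 17.6 to 1.86, 6.83, 5.8 and 7.24 CPM, with the groups apart and a change of -2.32 log2 (SE 0.49, adjusted p = 9.44e-05). The unstimulated libraries had 2.87, 1.72, 0 and 3.21 CPM.

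Among other members of the family Csf2 and Cxcl5 fell, while Ccl2, Ccl7 and Cxcl2 were not called. Csf2, which encodes the growth factor GM-CSF, measured 16, 21.8, 8.48 and 4.93 CPM at 0 µM and 4.65, 1.71, 3.87 and 5.43 at 100 µM, and the groups overlapped in library 4. It was lower by 1.70 log2 (adjusted p = 0.00498), a call that was lost without library 2 of the 0 µM group (adjusted p = 0.0671). Ccl2, which attracts monocytes, stood at 1613, 1641, 1338 and 1272 CPM and 1102, 1248, 1063 and 1376 CPM. Its change of -0.29 log2 did not pass the test (adjusted p = 0.0543), but it was called lower in 8 alternatives, among them the fit without library 4 of the 0 µM group (-0.36, adjusted p = 0.0292). The related Ccl7 had 884, 802, 801 and 762 and 794, 927, 649 and 986 CPM, and a change of 0.05 (adjusted p = 0.853). Their unstimulated means were 1049 and 578 CPM. Cxcl2 had 13 counts over the 0 µM group and 1 at 100 µM, a ratio of 10.4 with a 95% counting interval of 1.57 to 443, and missed the threshold (adjusted p = 0.0525, and 0.0503 without library 4 of the 0 µM group). It was called lower with no filter on low counts (adjusted p = 0.0259), a replicate block (0.0381), DESeq2 (0.0415) and without library 3 at 100 µM (0.0305). Cxcl5, another neutrophil attractant, fell from 235, 205, 231 and 238 to 48.3, 82, 54.2 and 76 CPM (-1.79 log2, adjusted p = 8.75e-13). It ended under all 4 unstimulated libraries, at 126, 129.9, 129 and 154 CPM. Of the 28 listed NF-κB-driven cytokines and chemokines 23 were tested, and 11 fell, 1 rose and 11 were not called (52.2% called, against 22.5% of all genes). Their median change was -0.776, against 0.0092 for all genes, and without library 4 of the 0 µM group 12 fell and 1 rose of 24 tested.

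**Figure D2:**
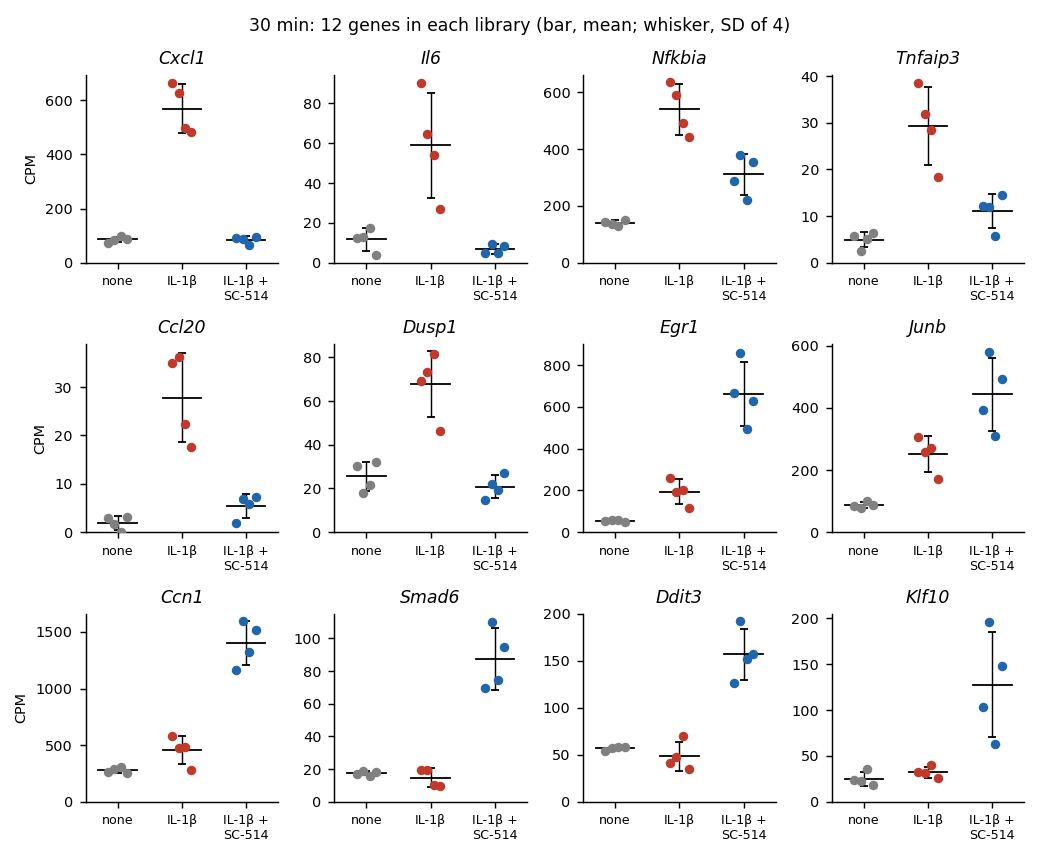
CPM of 12 genes in each of the 4 unstimulated libraries (grey), the 4 with IL-1β for 30 min (red) and the 4 with IL-1β and 100 µM SC-514 (blue), with bars at the mean and whiskers of 1 SD. With the inhibitor Cxcl1, Il6 and Dusp1 overlap the unstimulated libraries, Nfkbia stays between both, and Egr1, Junb and Ccn1 rise above the IL-1β level.

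Transcripts of the inhibitor proteins in the NF-κB loop, Nfkbia and Tnfaip3, fell too. Nfkbia, which encodes IκBα, stood at 142, 135, 129.9 and 152 CPM unstimulated, 638, 592, 493 and 441 with IL-1β and 289, 379, 221 and 355 with IL-1β and SC-514. The 3 sets did not overlap. With the inhibitor it fell by 0.79 log2 (SE 0.13, adjusted p = 1.14e-06), and it remained 1.16 log2 above the unstimulated group (adjusted p = 8.16e-10). Tnfaip3, which encodes the deubiquitinase A20, another brake on the pathway, went from 38.6, 31.9, 28.5 and 18.3 to 12.1, 11.9, 5.8 and 14.5 CPM. The groups were apart, with library 4 the lowest at 0 µM, and the change was -1.38 log2 (SE 0.35, adjusted p = 0.00134). Nfkbiz, encoding a nuclear IκB protein, was lower by 0.64 log2 (adjusted p = 0.0279), with overlapping libraries and a call lost in 5 of 8 fits that each left out 1 library (largest adjusted p = 0.145, without library 3 of the 100 µM group). Nfkbie, encoding IκBε, measured 60.4, 44.3, 60.9 and 45.8 and 40, 43.5, 42.6 and 47.1 CPM and did not pass the test (adjusted p = 0.366).

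Transcripts of 2 NF-κB subunits rose. Rel, which encodes c-Rel, had 18.2, 16, 16.2 and 22.5 CPM at 0 µM and 37.2, 35.9, 40.6 and 36.2 at 100 µM, with the groups apart, and rose by 1.03 log2 (SE 0.23, adjusted p = 0.000183). Nfkb2, the gene of the p100 precursor, rose from 151, 121, 123 and 133 to 210.1, 189.6, 169 and 189 CPM (0.52 log2, adjusted p = 4.58e-05). Traf1, an adaptor of TNF receptors, fell from 32.8, 44.3, 32.4 and 32.4 to 6.51, 14.5, 6.77 and 9.05 CPM (-1.91 log2, adjusted p = 2.82e-10), although IL-1β alone had not raised it over 30.9, 31.8, 36.9 and 26.5 CPM by the test (adjusted p = 0.756). Of the kinase subunits, Ikbkb, the gene of the inhibitor's own target, measured 60.4, 42.8, 45.5 and 39.4 and 40.9, 34.2, 47.4 and 43.5 CPM and was not called (adjusted p = 0.453). Chuk, the gene of IKKα, was lower by 0.50 log2 (adjusted p = 0.0072), with 56.8, 59.5, 61.6 and 47.2 against 41.8, 38.4, 43.5 and 35.3 CPM. Ikbkg, the gene of NEMO, changed by 0.33 (adjusted p = 0.0858, and 0.0367 without library 1 of the 0 µM group). In all, 4 of the 27 listed components and feedback genes rose and 6 fell, with a median of -0.016, and 3 rose and 6 fell without library 4. Among 24 receptors and adaptors of IL-1 and TNF 2 rose and 1 fell, both with and without library 4. The one that fell was Il1rap, the accessory chain of the IL-1 receptor (-0.84 log2, adjusted p = 3.76e-08).

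Immediate early genes divided into those that fell and those that rose beyond the IL-1β level. Of 41 tested, 15 rose, 9 fell and 17 were not called (58.5% called, against 22.5% of all genes, of which 10.1% rose and 12.5% fell), with a median of 0.172, and 14 rose and 9 fell of 42 without library 4. Among those that fell was Ier3, a survival gene, which went from 416, 431, 371 and 332 to 229, 165, 159.6 and 193 CPM (-1.06 log2, SE 0.12, adjusted p = 8.51e-12). All inhibited libraries lay under the lowest uninhibited one and above the unstimulated 119, 121, 112 and 135. Dusp1, a phosphatase that switches off p38 and JNK, fell from 69.1, 73.3, 81.7 and 46.5 to 14.9, 22.2, 19.4 and 27.2 CPM (-1.68 log2, adjusted p = 2.55e-09). Its unstimulated level was 30.2, 18.1, 21.8 and 32.1 CPM, which overlapped the inhibited libraries. Jun, an AP-1 subunit, fell by 0.53 log2 (adjusted p = 0.00605). Zfp36, which encodes an mRNA-destabilising protein, measured 237, 179, 173 and 116 CPM at 0 µM and 124, 132, 91.9 and 125 at 100 µM, and the groups overlapped. It was lower by 0.57 log2 (adjusted p = 0.0226), a call lost without library 1 of the 0 µM group (adjusted p = 0.171), without library 3 of the 100 µM group (0.098), with the 2 groups fitted alone (0.123) and with DESeq2 (0.0602).

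Egr1, a zinc-finger transcription factor induced by growth factors and MAP kinases, was at 54.6, 59.4, 57 and 48.1 CPM unstimulated, 261, 191, 203 and 115 with IL-1β and 666, 859.9, 492 and 629 with IL-1β and SC-514. The lowest inhibited library was above the highest of the others. The rise was 1.79 log2 (SE 0.20, adjusted p = 9.62e-13), and 1.60 without library 4. Junb, an AP-1 subunit, rose from 308, 258, 271 and 169.6 to 392.3, 581, 309.6 and 493 CPM (0.82 log2, SE 0.15, adjusted p = 5.1e-06). Its groups did not overlap, although the call was lost when the 2 groups were fitted alone (adjusted p = 0.0651). Ccn1, a secreted matrix protein also called Cyr61, rose from 577, 474, 483 and 280.2 to 1168, 1595, 1321 and 1518 CPM (1.63 log2, SE 0.17, adjusted p = 4.25e-14). Ier2 was higher by 0.63 log2 (adjusted p = 0.000228, and 0.0527 with the 2 groups alone) with 1 inhibited library inside the range at 0 µM. Fosb, an AP-1 subunit, had 3 counts over the 4 libraries at 0 µM and 152 at 100 µM, a ratio of 63.2 with a 95% counting interval of 21.2 to 310. Its inhibited libraries held 22.3, 32.5, 33.9 and 49.8 CPM, and its unstimulated ones 0.718, 0, 1.68 and 0. Atf3, a stress-induced repressor, rose from 4.37, 9.44, 1.54 and 4.22 to 10.2, 15.4, 10.6 and 12.7 CPM (1.30 log2, adjusted p = 0.00475). Klf10, a zinc-finger gene also induced by TGF-β, rose from 32.8, 31.2, 40.1 and 25.3 to 103, 196, 62.9 and 148 CPM (2.00 log2, adjusted p = 1.02e-09).

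Fos and Egr2 passed the test in neither direction. Fos stood at 35.7, 29.8, 25.4 and 13.4 CPM at 0 µM and 25.1, 54.6, 18.4 and 45.3 at 100 µM, and changed by 0.48 log2 (adjusted p = 0.258). Egr2 measured 39.3, 37.8, 25.4 and 14.8 and 28.8, 46.1, 27.1 and 29 CPM, with a change of 0.17 (adjusted p = 0.702) that took the opposite sign without library 4 of the 0 µM group, at -0.06. In both genes the groups overlapped, and both stayed well above the unstimulated level, by 3.38 and 2.22 log2 (adjusted p = 2.73e-09 and 7.02e-07). Myc, a growth regulator, changed by -0.27 log2 (adjusted p = 0.206).

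Most of the transcripts that fell furthest had not passed the test for IL-1β alone at this time. The 15 falling genes named by rule, which required separate groups so that their separation is no finding, include Cxcl1 and Il6 as genes that passed it. Of all genes tested 0.929% passed that test and 0.697% were raised in it. It shares the 0 µM libraries with the pair, so the overlap is not independent. Ramp3, a coreceptor of calcitonin-family receptors (chromosome 11, plus strand), had 91.9, 89.5, 98.1 and 108 CPM unstimulated, 132, 121, 148 and 149 at 0 µM and 11.2, 13.7, 9.68 and 13.6 at 100 µM. It fell by 3.50 log2 (SE 0.32, adjusted p = 5.21e-17), to -2.99 log2 against the unstimulated group. Has2, which makes hyaluronan, fell from 146, 139, 122 and 84.5 to 27, 26.5, 15.5 and 21.7 CPM (-2.42 log2, adjusted p = 1.93e-17). Socs3, which restrains JAK-STAT signalling, fell from 118, 75.5, 112 and 69 to 27, 14.5, 15.5 and 15.4 CPM (-2.37 log2, adjusted p = 3.72e-08). Both stood under all unstimulated libraries, which had 96.2, 88.6, 85.5 and 83.5 and 63.2, 66.2, 62.9 and 70.6 CPM. Il1rl1, the receptor of interleukin-33, fell by 1.62 log2 from a mean of 1586 CPM (adjusted p = 1.27e-25).

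Proteases, their receptors and other genes that had not passed the test for IL-1β alone also fell. Mmp10, a matrix metalloproteinase, went from 18.9, 31.9, 24.7 and 21.1 to 3.72, 3.42, 4.84 and 1.81 CPM (-2.78 log2, adjusted p = 1.96e-07). Pde4b, a phosphodiesterase that degrades cyclic AMP, went from 25.5, 38.5, 28.5 and 21.8 to 2.79, 7.68, 2.9 and 2.72 CPM (-2.77 log2, adjusted p = 4.31e-10). Serpinb2, an inhibitor of plasminogen activators, had no count at 100 µM and 6.55, 5.81, 11.6 and 2.11 CPM at 0 µM, which is at least 9.35-fold lower when 3 counts are allowed over the whole 100 µM group. Plaur, the urokinase receptor, fell from 119, 174, 144 and 142 to 63.2, 57.2, 37.7 and 50.7 CPM (-1.47 log2, adjusted p = 3.4e-12), and Cd44, the hyaluronan receptor, by 0.70 log2. Nes, an intermediate filament gene, fell by 2.88, Foxa2, a forkhead factor, by 2.85, Tnnt2, a cardiac troponin, by 2.66, and Upp1, a uridine phosphorylase, by 2.61. Dio2, a deiodinase, fell by 2.47, and Lce1g, one of a family of similar genes whose reads could be split, by 2.94. Ptpn22, a phosphatase, had 51 counts at 0 µM and 3 at 100 µM (ratio 13.6, interval 4.41 to 68.3), and Kcnk10, a potassium channel, had 28 and 3 (ratio 7.48, interval 2.31 to 38.5). Vcam1, an adhesion molecule, was higher by 0.31 (adjusted p = 0.0397), a call lost without library 4 of the 0 µM group (adjusted p = 0.193) and in 5 of the 7 other fits that left out 1 library. Icam1 had 5 and 2 counts and was not called. Of 26 listed adhesion, protease and effector genes tested 11 fell and 3 rose, with a median of -0.315, and without library 4 11 fell and 1 rose.

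Targets of BMP and TGF-β were among the transcripts that rose most. Smad6, an inhibitor of BMP receptors, measured 17.2, 18.9, 15.9 and 18.5 CPM unstimulated, 19.6, 19.6, 10 and 9.86 at 0 µM and 69.7, 110.2, 74.5 and 95 at 100 µM, with the inhibited libraries apart from both. It rose by 2.56 log2 (SE 0.32, adjusted p = 1.19e-10). Id2, a repressor of basic helix-loop-helix factors, rose from 13.8, 18.1, 19.3 and 21.1 to 54.9, 114, 70.6 and 77.8 CPM (2.13 log2, adjusted p = 3.85e-10). Skil, a corepressor of SMADs, rose by 1.22 log2 (adjusted p = 4.08e-09), while Grem1, a secreted BMP antagonist, fell by 0.61 (adjusted p = 4.38e-17). Of 15 tested, 7 rose and 1 fell, with a median of 0.408, and 6 rose and 2 fell without library 4. Of the circadian clock genes 6 of 14 rose and none fell, with a median of 0.567, and 5 rose without library 4. Bhlhe40, a clock repressor, rose by 1.39 log2 (SE 0.15, adjusted p = 6.79e-13), the nuclear receptor gene Rora by 1.07, Ciart by 1.76 and Cry2 by 0.93.

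The genes named by rule as rising also held 5 histone genes. Hist1h1c, a linker histone, had 28, 26.7, 24.3 and 20.9 CPM unstimulated, 50.2, 39.9, 61.6 and 42.9 at 0 µM and 256, 324, 243 and 358 at 100 µM, a rise of 2.60 log2 (SE 0.27, adjusted p = 3.85e-14). Hist1h4i rose by 2.59, Hist1h2bc by 2.55, Hist2h3c1 by 2.67 and Hist2h3c2 by 2.20. Of 25 tested histone genes, a group put together after these values were seen, 13 rose and 1 fell, both with and without library 4. Near-identical copies make the split of reads among them uncertain, and replication-dependent histone transcripts mostly lack the poly(A) tail on which TagSeq depends. Mertk, a receptor kinase for the uptake of dead cells, rose from 2.18, 0, 0.77 and 0.704 to 6.51, 12.8, 10.6 and 9.96 CPM (3.32 log2, adjusted p = 3.55e-07). Limch1, an actin-binding protein gene, rose by 2.73, the lectin gene Cd209c by 2.28, Dusp2, an ERK phosphatase gene, by 2.26, and Slc30a1, a zinc exporter gene, by 1.86. Gadd45g and Gadd45a, growth-arrest genes, rose by 1.95 and 1.63 log2 (adjusted p = 6.65e-08 and 4.3e-09).

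Stress-response genes did not move as 1 block. The integrated stress response, in which ATF4 raises amino acid and redox genes, had 10 of 23 tested genes higher and 2 lower (median 0.226), and 10 and 1 without library 4. Ddit3, the gene of CHOP, rose from 40.8, 47.9, 70.1 and 34.5 to 126, 192, 152 and 158 CPM (1.71 log2, SE 0.17, adjusted p = 8.97e-15). All inhibited libraries lay above the unstimulated 53.9, 56.8, 57.8 and 58.6. Chac1, a glutathione-degrading enzyme gene, rose by 1.67, Sesn2, a stress sensor gene, by 1.43, and Slc3a2, an amino acid carrier gene, by 0.67 log2. In the list of endoplasmic reticulum stress 4 of 18 rose and 1 fell, a share of 27.8% near the 22.5% of all genes. In it Herpud1 rose by 1.41, while Hspa5, the gene of the chaperone BiP, rose by 0.27 log2 (adjusted p = 0.000209). Without library 4 the counts were 3 and 1. Heat shock chaperones fell in 8 of 19 and rose in 1 (9 and 2 without library 4), with Hsph1 at -0.85, Hsp90aa1 at -0.52 and Dnajb1 at 0.56 log2. Targets of NRF2, the regulator of detoxification, fell in 12 and rose in 7 of 27 (11 and 7 without library 4). Gsta4, a glutathione transferase gene, fell from 179, 249, 247 and 444 to 96.7, 115, 112 and 116 CPM (-1.35 log2, adjusted p = 3.94e-10), with library 4 the highest at 0 µM and the groups apart. Abcc1, an exporter gene, fell by 0.96 and Txnrd1, a thioredoxin reductase gene, by 0.63, while Sqstm1, the gene of the autophagy receptor p62, rose by 0.68 and Nfe2l2, the gene of NRF2 itself, by 0.52 log2.

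Genes of ribosome production fell together. Of 20 tested in this list, which includes targets of Myc, 18 fell and none rose, with a median of -0.51, and 16 fell without library 4. Nolc1, a nucleolar chaperone gene, went from 375, 429.8, 412 and 464 to 229, 259, 247 and 217 CPM (-0.82 log2, SE 0.08, adjusted p = 1.93e-17), with the groups apart and the unstimulated libraries at 360.5, 372, 393 and 410. Dkc1, which encodes a pseudouridine synthase, fell by 0.88, Rrs1, a ribosome assembly gene, by 0.70, and Wdr12, another, by 0.77 log2. Among 34 cell cycle genes 6 fell and none rose, 3 fell without library 4, and 17.6% called was under the 22.5% of all genes. Ccnd1, the gene of cyclin D1, fell by 0.36 log2 (adjusted p = 9.9e-08). Splicing factor transcripts Srsf3 and Srsf6 fell by 0.69 and 0.58 log2, and Jmjd6 by 1.05, while Brd2, a chromatin reader gene, rose by 0.68, in a list of transcription control and short-lived transcripts with 6 higher and 8 lower of 25 (the same numbers without library 4).

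Matrix and contractile genes fell in 8 of 26 and rose in 4 (8 and 2 without library 4). Timp1, an inhibitor of metalloproteinases, went from 1004, 953, 910 and 828 to 565, 435, 477 and 468 CPM (-0.93 log2, adjusted p = 8.48e-08), Fbn1, the gene of fibrillin, fell by 0.98, Actn1, an actinin gene, fell by 0.62, and Col3a1, a collagen gene, rose by 0.67 log2. Targets of YAP and serum response factor fell in 7 and rose in 3 of 17 (10 and 2 without library 4), with Zyx at -0.41 and Axl at -0.30 log2 beside the rise of Ccn1. Of 13 fibroblast markers 3 rose and 5 fell (2 and 5 without library 4), a share of 61.5% beside the 22.5% of all genes. Among them Prrx1 changed by -0.47 and Twist1 by -0.59 log2, both mesenchymal transcription factors. Of 38 interferon-stimulated genes 2 rose and 1 fell (7.89% called), and without library 4 none rose and 2 fell. Of 26 hypoxia and glycolysis genes 2 rose and 4 fell, and the same numbers of 27 without library 4, a share of 23.1% beside the 22.5% of all genes, among them Slc2a1, the gene of a glucose carrier, at -0.90 and Hk2, the gene of hexokinase 2, at 0.66 log2. Of 29 sterol and lipid synthesis genes 2 rose and 5 fell (1 and 3 without library 4), a share of 24.1% beside the 22.5% of all genes. Of 19 genes of ERK feedback and EGF receptor ligands 4 rose and 5 fell (2 and 5 without library 4), of 13 of JAK-STAT feedback 4 and 3 (3 and 3), of 21 targets of p53 6 and 2, and of 21 regulators of survival and death 4 and 3, both also without library 4. Of the 10 genes listed for the aryl hydrocarbon receptor, which include its own gene Ahr, 5 were tested, 2 rose and 2 fell. Ahr was among those that fell (-1.23 log2, adjusted p = 4.49e-12), and Nfe2l2 was among those that rose.

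The share called, against 22.5% of all genes, was 90% for ribosome biogenesis, 70.4% for NRF2 targets, 58.8% for YAP and serum response targets, 56% for short-lived transcripts, 53.8% each for effector genes and JAK-STAT feedback and 53.3% for BMP targets. It was 52.2% for the integrated stress response, 47.4% each for heat shock and ERK feedback, 46.2% for matrix, 42.9% for clock, 38.1% for p53 targets, 37% for NF-κB components, 33.3% for survival regulators and 12.5% for receptors. For the 5 tested genes listed for the aryl hydrocarbon receptor, Ahr among them, it was 80%. For the 7 tested markers of other cell types it was 42.9%. The histone genes, put together after their values were seen, had 56%.

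**Figure D3:**
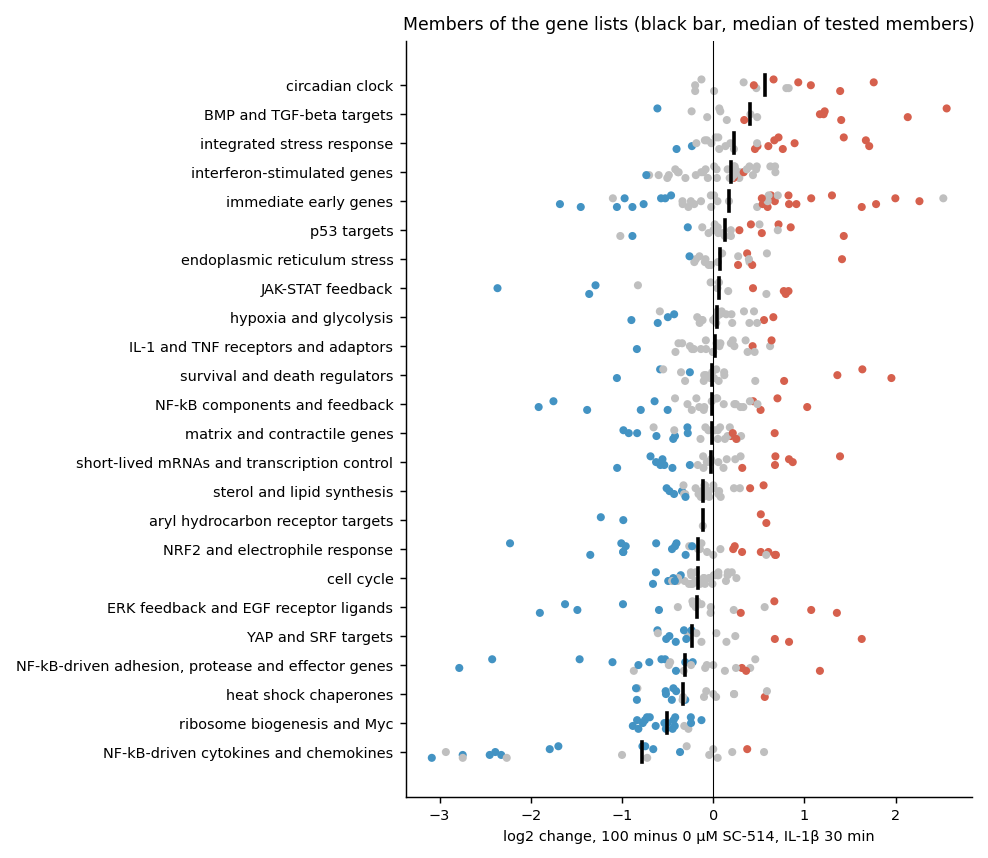
Log2 change at 100 against 0 µM SC-514 for the tested members of 24 gene lists, one point per gene (red, called higher; blue, called lower; grey, not called), with a black bar at each list's median. Fosb, whose fitted value has no meaning as a fold, is not drawn. The medians of cytokines and of ribosome biogenesis lie lowest, at -0.776 and -0.51, and those of clock genes and BMP targets highest, at 0.567 and 0.408.

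The doses below 100 µM called fewer genes against the same 0 µM libraries. At 25 µM 621 genes (5.77%) differed from 0 µM, 327 higher and 294 lower, and at 50 µM 1576 (14.6%), 686 higher and 890 lower. Library 1 at 50 µM held 12191 counts, and it stays in the fit, but the levels below leave it out. The count at 25 µM ran from 340 without library 1 of that group to 1000 without its library 4, and was 353 and 371 without its libraries 2 and 3 and 398 without library 4 at 0 µM. In library 4 at 25 µM Ramp3 had 122.3 CPM, against 19.47, 18.68 and 17.5 in the others, while Cxcl1 and Il6 were lowest there. Cxcl1 had 305, 284, 231 and 170.4 CPM at 25 µM and 179.9, 138 and 166 at 50 µM, with no overlap between 0, 50 and 100 µM. Il6 was already at 16.5, 11.4, 16.7 and 5.91 CPM at 25 µM, against 8.25, 6.74 and 8.39 at 50 µM. Nfkbia stood at 568, 513, 451 and 353 CPM at 25 µM and did not differ from 0 µM by the test (adjusted p = 0.431), and at 488, 342 and 359.6 at 50 µM (adjusted p = 0.016). Ier3 changed by -0.12 log2 at 25 µM (adjusted p = 0.632) and -0.43 at 50 µM (adjusted p = 0.00988). Egr1 rose with 50 µM to 491, 277 and 387 CPM (0.98 log2, adjusted p = 0.000365), after 329, 369, 247 and 168 at 25 µM. Ccn1, at 746, 799, 703 and 839 CPM, was higher already at 25 µM (0.77 log2, adjusted p = 0.00125). Socs3 changed by 0.13 log2 at 25 µM and -0.69 at 50 µM, neither past the threshold (adjusted p = 0.847 and 0.103).

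**Figure D4:**
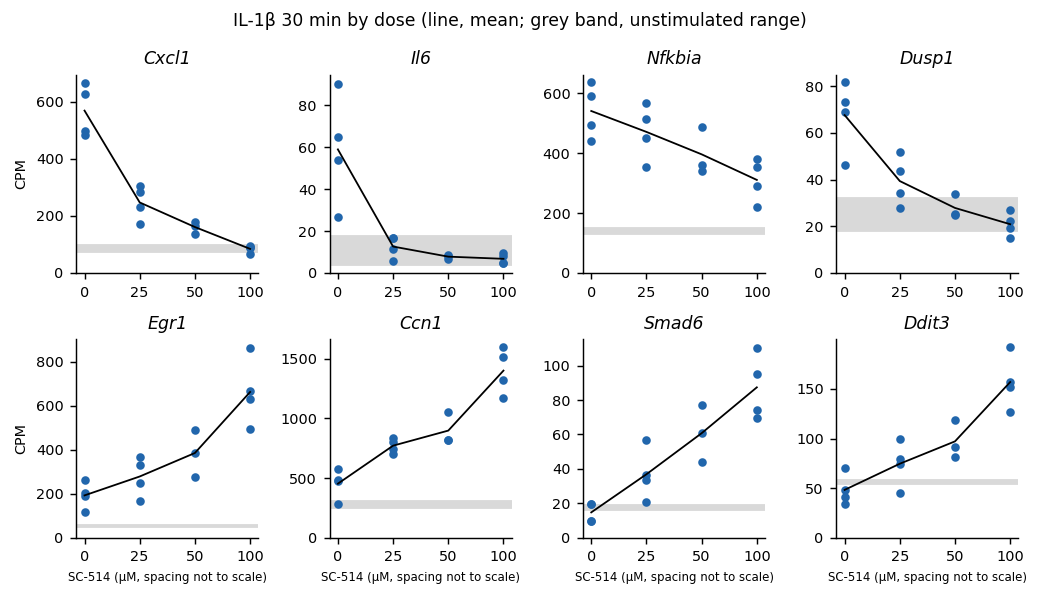
CPM of 8 genes at 0, 25, 50 and 100 µM SC-514 (horizontal, doses evenly spaced and not to scale) 30 min after IL-1β, one point per library and a line through the means, without the shallow library at 50 µM. The grey band spans the 4 unstimulated libraries. Il6 lies inside the band from 25 µM on, Cxcl1 reaches it at 100 µM, and Smad6 and Ddit3 leave it upward.

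Between 50 and 100 µM the test found 163 genes (1.51%), 70 higher and 93 lower, and 61 without library 3 or 102 without library 2 of the 50 µM group. The rise included histone genes, with Hist1h2bc at 1.62 and Hist1h1c at 1.29 log2, Mt1, the gene of a metal-binding protein, at 0.79 (adjusted p = 2.33e-05), and the kinase gene Mknk2 at 0.71. Mt1 had 302, 229, 224 and 177 CPM at 0 µM, 328, 284 and 387 at 50 µM and 591, 553, 531 and 631 at 100 µM. Lower at 100 than at 50 µM were the transcription factor gene Sox4 (-0.62 log2, adjusted p = 3.1e-07), Zfp36l1 (-0.61) and Zfp36l2 (-0.56), which encode mRNA-destabilising proteins, and Inhba, the gene of an activin subunit (-1.38). Sox4 had 927, 1091, 976 and 1026 CPM at 0 µM, 734, 674 and 704 at 50 µM and 457, 411, 478 and 453 at 100 µM, without overlap between the last 2 doses.

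The effect of 100 µM was then set against that at 15 and 60 min in other libraries of the same stimulus. There 2670 genes (24.8%) were called at 15 min and 2791 (25.9%) at 60 min. Of the 1210 genes higher at 15 min 668 were also higher at 30 min (55.2%, or 61.7% of those higher at 30 min), and of the 1460 lower 937 were also lower (64.2%, or 69.8%). At 60 min the shared calls were 673 of 1239 higher (54.3%, or 62.1%) and 976 of 1552 lower (62.9%, or 72.7%). A test of the difference itself found 7 genes between 30 and 15 min (0.065%), all with a lower effect at 30 min, and 28 between 60 and 30 min (0.26%), 3 with a higher and 25 with a lower effect at 60 min. The former ran from 2 to 9 as single libraries were left out. It was 2 without library 3 at 100 µM or library 1 at 0 µM of the 30 min groups, or without library 1 or 2 of the 15 min group at 0 µM, and 3 without library 2 at 100 µM and 15 min.

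All 7 genes, Nfkbia, Tnfaip3, Egr1, Egr2, Ier3, Ier2 and Zfp36, had been raised by IL-1β alone at 30 min, as were 0.697% of all genes tested. Both tests use the 0 µM libraries at 30 min, so high values there enter both, and the overlap is not independent. At 15 min Nfkbia measured 148, 185, 159 and 150 CPM at 0 µM and 221, 296, 171 and 211 at 100 µM, a difference of 0.49 log2, against -0.79 at 30 min. The difference between both times was -1.28 (adjusted p = 3.26e-05). Tnfaip3 had 6.33, 6, 5.11 and 9.89 and 17.8, 11.4, 17.8 and 14 CPM at 15 min, an effect of 1.14, which was lower by 2.53 log2 at 30 min (adjusted p = 0.0211). Egr1 had 66.2, 41.2, 82.6 and 75 CPM at 0 µM and 648, 836, 452 and 623 at 100 µM after 15 min, and the inhibited ranges at 15 and 30 min overlapped. Its effect was lower by 1.48 log2 at 30 min (adjusted p = 0.0141). Egr2, not called at 30 min, had an effect of 2.23 log2 at 15 min, on 7.04, 4.29, 5.96 and 7.42 and 35.6, 37.1, 21.9 and 23.7 CPM (adjusted p of the difference = 0.038). Ier3, Ier2 and Zfp36 had differences of -1.15, -1.03 and -1.48 log2. With 1 library left out, Egr2 lost the call in 11 of 16 fits, Tnfaip3 in 7, and Egr1, Ier2 and Zfp36 in 5 each. With only the groups of this difference fitted, Nfkbia, Ier2, Egr1 and Zfp36 lost the call (adjusted p = 0.155, 0.537, 0.45 and 0.259). That fit called 13 genes, 7 with a higher and 6 with a lower effect at 30 min, and shared 3 calls with the main fit.

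Between 30 and 60 min the effect became lower in 25 genes. Rnd1, whose product affects cell rounding, had 15.3, 12.3, 13.9 and 9.86 CPM at 0 µM and 16.7, 17.1, 17.4 and 17.2 at 100 µM after 30 min (adjusted p = 0.33), and 104, 75, 83 and 84.9 and 24.1, 24.4, 27.9 and 18.6 after 60 min. The difference of the effects was -2.28 log2 (adjusted p = 5.5e-06). Rel, which the inhibitor had raised at 30 min, had 74.6, 52.9, 50.8 and 43.8 and 40.4, 50.6, 27.9 and 45.6 CPM at 60 min, a difference of effects of -1.46 (adjusted p = 0.0014). Vcam1 (-0.996), the prostaglandin synthase gene Ptges (-1.33), the kinase gene Pim1 (-1.26), Nfe2l2 (-0.65), its competitor Bach1 (-0.86) and Cdc42ep4 (-0.89) went the same way. Cxcl1 was the reverse, since it reached 584, 559, 558 and 463 CPM with the inhibitor at 60 min, against 1100, 1194, 1211 and 1265 without, and the difference of effects was 1.61 log2 (adjusted p = 5.3e-07). Dusp1 and Mrpl2, a mitochondrial ribosomal protein gene, had differences of 1.18 and 0.57 log2, and lost the call in 13 and 10 of 16 fits without 1 library. The count of 28 fell to 15 without library 4 or 16 without library 2 at 100 µM and 30 min, to 16 without library 4 at 0 µM and 30 min or at 100 µM and 60 min, and to 17 without library 1 at 0 µM and 60 min.

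**Figure D5:**
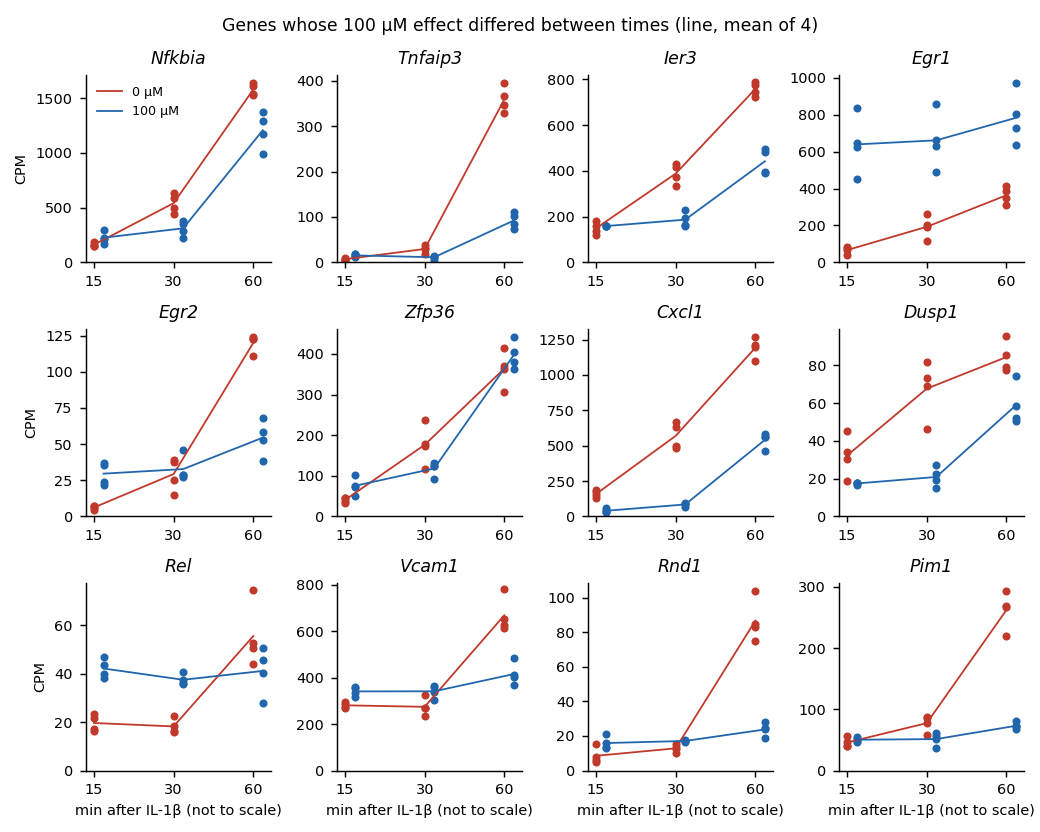
CPM of 12 genes at 0 µM (red) and 100 µM SC-514 (blue) 15, 30 and 60 min after IL-1β (horizontal, evenly spaced and not to scale), one point per library and lines through the means of 4. Egr1 is high at all 3 times with the inhibitor, Cxcl1 is higher with it at 60 than at 30 min, and in Rnd1 and Pim1 the lines lie further apart at 60 than at 30 min.

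Under TNF-α at 30 min the same dose changed 1930 genes (17.9%). Of the 767 higher there 433 were also higher under IL-1β (56.5%, or 40% of those higher here), and of the 1163 lower 798 were (68.6%, or 59.5%), while none went the opposite way. The test of the difference between both stimuli called 6 genes (0.0557%), 3 in each direction, and 1 to 8 as single libraries were left out, the lowest without library 3 at 100 µM under TNF-α. It was 2 without library 1 or 2 at 100 µM or library 2 at 0 µM under IL-1β, 3 without library 4 at 0 µM under IL-1β or at either dose under TNF-α, and 4 without library 4 at 100 µM under IL-1β or library 1 at 0 µM under TNF-α. Hmga1, a chromatin protein gene, had 45.1, 37.8, 47.8 and 44.4 and 58.6, 58.9, 56.1 and 58.8 CPM under IL-1β and 76.6, 60.5, 47.5 and 68.2 and 46.3, 40.3, 37.5 and 30.1 under TNF-α, a difference of 1.12 log2 (adjusted p = 0.0312). Cox7c, a respiratory chain subunit gene, differed by 0.62, Ssbp1, a mitochondrial DNA-binding protein gene, by -0.79 and Alyref, an mRNA export factor gene, by -0.50 log2. Each of these 4 calls was lost in 6 to 12 of 16 fits without 1 library. Among NF-κB targets, Cxcl1 changed by -2.24 log2 under TNF-α, Il6 by -3.99, Nfkbia by -0.62 and Tnfaip3 by -1.96. The sets of column names differ by stimulus label, so a difference between the sets cannot be told apart from one between the stimuli.

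Genes chosen as cytokine-raised in libraries outside the pair gave a count free of shared samples. Of the 60 genes that TNF-α alone raised at 30 min (0.557% of those tested), 26 fell with SC-514 under IL-1β, 10 rose and 24 were not called, with a median of -0.325 (28 and 9 without library 4), where 12.5% of all genes fell and 10.1% rose. Of the 295 that IL-1β raised by 60 min (2.74%), 98 fell, 56 rose and 141 were not called, with a median of -0.192 (101 and 44 without library 4). Those that rose were 19% of the 295, also above the share of all genes.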

How the data were processed

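The table held counts per gene, deposited by the authors as 164 columns for 22070 genes, with no unit stated beyond whole numbers. Reads were aligned with Bowtie2 to GRCm38 (mm10), per the submitters' processing notes. How reads were assigned to genes, from which annotation and with what use of strand is not given in the sources used here, and no molecular identifiers are named, so counting intervals and floors cover counting error only. Gene symbols were found for 21858 IDs and not for 212.

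All 164 libraries in 41 groups were fitted with edgeR 4.0.16 (R 4.3.3, limma 3.58.1; TMM scaling, its filter on low counts, robust quasi-likelihood test), over 10766 genes, with Benjamini-Hochberg adjustment over all of them and a threshold of 0.05. The biological coefficient of variation was 0.0799. The fit was also run on simulated counts with known changes in a single group and libraries drawn independently. That cannot show how an atypical library or dependence between libraries affects the calls. Levels are CPM scaled by the TMM factors. Bounds against a group at 0 use 3 counts over the group, and counting intervals are exact at 95%.

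The comparison, its gene lists and the way genes were picked for naming were chosen with earlier results of these data known. The rule took the 15 falling and 15 rising genes of largest change among called genes with at least 5 CPM in the higher group and separate libraries, leaving out gene models without a name, ribosomal protein genes and mitochondrially encoded genes. One gene that it picked is not reported here. It added a set of NF-κB and immediate early genes, up to 4 genes of each list by adjusted p, and up to 8 in each direction for the differences between effects and for 100 against 50 µM. Col1a1, Vim and Thy1 are named besides it, as markers of the cells, and were picked with their values in view. Lum and Fap are named as the fibroblast markers that were not tested. Alternatives were RLE factors, no filter on low counts, only the groups compared, a replicate block, DESeq2 1.42.0 and leaving out libraries. The fits without number 4 of both groups, and with RLE factors without 2 shallow libraries, were chosen after seeing the data. Replicate numbers were not treated as pairs.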

Additional observations from a re-analysis of the deposited data

Results flagged for a closer look

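Groups of 4 values came from the genes of largest change, the added NF-κB and immediate early genes, and library measures such as total counts. In 6 of 119 such groups 1 library lay far from the other 3. Normally distributed values would give about 1 in 20. That rate need not hold for low counts or for genes picked for separate groups. At 100 µM these were Pde4b in library 2 (7.685 CPM), Egr2 in library 2 (46.11 CPM) and Cxcl2 in library 3 (0.9675 CPM, its only count). At 0 µM they were Kcnk10 in library 2 (8.713 CPM), Hist2h3c2 in library 3 (4.623 CPM) and Tnnt2 in library 4 (33.08 CPM). Library 4 at 0 µM held 1 of the 6.

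The effect of 100 µM differed between stimuli, by edgeR's test of the difference (IL-1β minus TNF-α, log2), in Hmga1 (1.118), Cox7c (0.6244), Ssbp1 (-0.7946) and Alyref (-0.4975) among the named genes.

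Between 30 and 15 min under IL-1β the effect differed, as 30 minus 15 min on the log2 scale, in Nfkbia (-1.2838), Ier3 (-1.1544), Ier2 (-1.0349), Egr1 (-1.4838), Zfp36 (-1.4812), Tnfaip3 (-2.5258) and Egr2 (-2.0616). At 15 min 6 of the 7 genes were called higher with the inhibitor than without it, and Ier3 was not called.

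Between 60 and 30 min (60 minus 30 min) it was higher in Cxcl1 (1.6083), Dusp1 (1.1825) and Mrpl2 (0.5725). It was lower in Ptges (-1.3282), Rnd1 (-2.2838), Vcam1 (-0.9963), Nfe2l2 (-0.6536), Pim1 (-1.2649), Rel (-1.4649), Cdc42ep4 (-0.8937) and Bach1 (-0.8551).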

How the results depend on the processing

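The count of 2425 genes at 100 µM stayed within 1.5 times under every alternative: 2461 with RLE factors (1298 higher, 1163 lower), 1819 with DESeq2, 2008 with no filter, 2234 with only the 2 groups, 1980 to 2336 with 1 library left out and 1660 without number 4 of both groups. The RLE split moved the medians of NF-κB components, matrix genes, short-lived transcripts and survival regulators from -0.016, -0.017, -0.028 and -0.012 to 0.014, 0.013, 0.001 and 0.017. With RLE factors but without the 2 shallow libraries 1099 genes were higher and 1353 lower. These medians were then -0.016, -0.016, -0.028 and -0.023. Smaller counts moved further, and the cause was not tested. At 25 µM the count was 254 with only the groups compared, 395 with DESeq2 and 340 to 1000 with 1 library left out. For 100 against 50 µM it was 311 with only those groups and 61 to 172 with 1 left out. For IL-1β alone it was 272 with no filter, 60 with DESeq2 and 60 to 143 with 1 left out. The difference between stimuli gave 12 genes with RLE factors, 15 with no filter, 12 with DESeq2 and 1 to 8 with 1 left out. That between 30 and 15 min gave 44 with no filter (26 with a higher and 18 with a lower effect at 30 min) and 2 to 9 with 1 left out. With only those groups it gave 13 (7 higher, 6 lower), of which 3 were among the 7 of the main fit. That between 60 and 30 min gave 51 with no filter and 15 to 31 with 1 left out.

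Of the log2 changes of single genes under all alternatives, 3183 kept direction and side of the threshold, 162 lost the call, 17 gained it and 6 changed sign. The sign changes were in genes that were not called. Ccl7 ran from -0.0343 to 0.147 with 1 library left out, with -0.0038 without library 2 at 100 µM, and was -0.0706 without number 4 of both groups. Egr2 ran from -0.0597 to 0.3426, with -0.0482 without library 2 at 100 µM, and was -8e-04 without number 4 of both groups.

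Replicate numbers showed no clear pairing between 100 and 0 µM. There same-numbered deviations correlated at 0.102, 0.006, 0.023 and -0.085, and 2 of 4 libraries correlated best with their own number. With a replicate block the counts were 2769 at 100 µM, 964 at 25 µM, 307 for 100 against 50 µM, 344 for IL-1β alone and 20 for the difference between stimuli. At 25 and 0 µM all 4 libraries correlated best with their own number, and at 100 and 25 µM 3 of 4 did. This is a hint from the data and not from the design, and these correlations cannot exclude a pairing. Genes near 3 counts in a library are limited by depth.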
